A study of Mus musculus with 18 samples.

Results

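Schwann cell and glial marker genes were read in sorted inner ear cells of newborn mice. The set held 8 genes, Mbp, Fabp7, S100b, Erbb3, Foxd3, Sox10, Pmp22 and Egr2, chosen as Schwann cell and glial markers from 19057 genes with a single symbol on the array. They were represented by 13 probes, and each probe was read separately because the 5 Mbp probes gave different patterns. All mice were of the Atoh1/nGFP strain on a C57BL/6 background and were taken at postnatal day 1 (P1), with no further treatment or mutation, and the transgene places a nuclear green fluorescent protein (GFP) under Atoh1 regulatory sequences. Non-epithelial cells (NEC) lacked both GFP and the epithelial surface protein CD326, hair cells (HC) carried both, and epithelial non-hair cells (ENHC) carried CD326 without GFP. Cochlear and vestibular cells were sorted apart, giving 6 groups of 3 arrays and 18 arrays in all. Each array held RNA pooled from the ears of several mice, so that p-values measure the spread between pools and not between single mice. The NEC gate was negative and kept non-epithelial cells of any type that lacked GFP, and no group was a sorted glial population.

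Schwann cells arise from the neural crest and ensheath the axons of the auditory and vestibular nerves, while satellite glia surround the nerve cell bodies in the ganglia. Foxd3 and Sox10 are transcription factors of the neural crest and early glia, and Erbb3 is the receptor through which axonal neuregulin supports Schwann cells. Egr2 drives the myelination programme, and Pmp22 and Mbp encode proteins of the myelin sheath. Fabp7 is a fatty acid binding protein of immature glia, and S100b is a calcium binding protein long used as a glial marker. Several of these genes are also known outside glia, with Sox10 present in the otic epithelium and S100b in some sensory cells.

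Between 16668 and 19564 probes were detected per array, meaning that their detection p-value was under 0.01, and raw array medians ranged between 89.2 and 121.8. The closest array to each of the 18 arrays was of its own group, and precision is limited by having 3 arrays a group. The marker lists named next followed the labels, while the supporting cell list did so in the cochlea only. The summed level of its 11 genes was 7494.6 to 7845.1 in cochlear ENHC, and up to 6137.4 in cochlear HC and 4057.6 in cochlear NEC. In the vestibular system it was 3085.6 to 4594.5 in ENHC, 4145.7 to 6232.0 in HC and 4397.3 to 5484.6 in NEC. All 10 hair cell markers measured were higher in HC than in ENHC, and all 8 epithelial markers measured were lower in NEC than in ENHC. All 9 endothelial and 9 of 12 mesenchymal markers were higher in NEC than in ENHC. The summed normalized level of the 12 mesenchymal genes was 21659.2 to 32986.7 in NEC, 1196.2 to 1446.4 in HC and 2476.5 to 4874.0 in ENHC, and the part of these cells in the glial values was not tested. In such bulk samples, fewer cells of a type and less RNA per cell cannot be told apart.

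Promoters of 5 members are shown here as the 250 bases before an annotated start site, taken from RefSeq on build GRCm38.p6, all on the plus strand. Windows matched by symbol were used for 5 of the 8 members, Foxd3, Fabp7, Egr2, S100b and Pmp22, with 12 windows in all. No window of Mbp, Sox10 or Erbb3 is among them. Capitals mark matches on either strand to the palindrome TGACGTCA, to the CArG box that serum response factor binds, or to CCAAT, which reads as its reverse complement on the opposite strand. The matches marked in 1 window do not overlap, and the motifs were picked after a scan of these windows. Of 32851 windows of the same length from all genes, 1.55% held TGACGTCA, 1.47% a CArG box and 33.85% CCAAT.
Foxd3, chr4:99656049-99656298: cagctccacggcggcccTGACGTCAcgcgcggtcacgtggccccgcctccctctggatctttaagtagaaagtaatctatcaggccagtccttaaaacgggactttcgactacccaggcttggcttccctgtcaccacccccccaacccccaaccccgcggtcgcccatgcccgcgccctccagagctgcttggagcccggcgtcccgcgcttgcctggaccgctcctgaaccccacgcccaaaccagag
Fabp7, chr10:57784673-57784922: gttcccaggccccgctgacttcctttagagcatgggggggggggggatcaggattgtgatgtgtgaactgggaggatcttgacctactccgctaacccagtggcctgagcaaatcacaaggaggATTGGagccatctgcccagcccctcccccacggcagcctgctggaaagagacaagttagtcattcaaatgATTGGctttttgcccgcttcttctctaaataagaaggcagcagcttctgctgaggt
Pmp22, the most upstream of its starts, chr11:63128732-63128981: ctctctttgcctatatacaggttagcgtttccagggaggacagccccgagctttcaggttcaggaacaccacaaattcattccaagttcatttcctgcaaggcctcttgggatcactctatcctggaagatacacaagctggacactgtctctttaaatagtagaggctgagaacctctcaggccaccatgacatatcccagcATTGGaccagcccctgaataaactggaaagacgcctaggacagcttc
S100b, chr10:76253586-76253835: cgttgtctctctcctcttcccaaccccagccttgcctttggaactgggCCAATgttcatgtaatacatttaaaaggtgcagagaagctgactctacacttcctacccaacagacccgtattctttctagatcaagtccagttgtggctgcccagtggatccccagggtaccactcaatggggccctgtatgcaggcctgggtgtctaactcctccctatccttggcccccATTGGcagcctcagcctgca
Egr2, chr10:67537316-67537565: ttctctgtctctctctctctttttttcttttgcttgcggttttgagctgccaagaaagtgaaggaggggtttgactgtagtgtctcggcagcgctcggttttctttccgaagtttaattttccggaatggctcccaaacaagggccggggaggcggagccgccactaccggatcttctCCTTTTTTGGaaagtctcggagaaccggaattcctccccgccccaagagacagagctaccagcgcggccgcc
Egr2, chr10:67537619-67537868: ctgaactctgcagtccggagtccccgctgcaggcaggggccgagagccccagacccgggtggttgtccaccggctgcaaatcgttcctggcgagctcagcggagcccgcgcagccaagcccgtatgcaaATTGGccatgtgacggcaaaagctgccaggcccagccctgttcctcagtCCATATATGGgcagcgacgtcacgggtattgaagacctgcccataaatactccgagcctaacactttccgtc
The windows printed for Fabp7, S100b and Pmp22 shared CCAAT and held no CArG box, although 2 of the 4 Pmp22 windows, which are not printed, held no CCAAT. Both Egr2 windows printed held a CArG box that began at -72 from the start site. Of the Egr2 windows not printed, the most upstream held no CArG box. The others largely repeat the second one printed and hold the same CCATATATGG, at -73 and -133. The letters ACAAAG and ACAATG, which SOX proteins can bind, were in 0 of the 12 member windows, against 16.46% and 10.69% of all windows. With 12 windows from only 5 members, some of them overlapping, these are too few to read as a lack of such letters. GTGGGCG was also searched and was matched in the most upstream Egr2 window, at -31, against 7.02% of all windows. These matches describe the sequence only.

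Of the 13 probes, 11 were detected on at least 2 arrays and were tested. Among these 11, 9 differed among the 6 groups in a moderated F test at a false discovery rate of 5%, where 57.3% of all 24352 tested probes did. The exceptions were Egr2 (adjusted p = 0.228) and Mbp probe ILMN_3081854 (adjusted p = 0.452). A probe was called higher or lower at a Benjamini-Hochberg adjusted p under 0.05 over all tested probes, in a limma fit of all 18 arrays. A difference is on the log2 scale of normalized intensity, with its standard error after ±.

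In NEC against ENHC over both organs, 5 of the 8 genes were higher on a total of 6 probes, while Sox10, Erbb3 and a further Mbp probe were lower. The background was 14.0% of all tested probes higher and 13.8% lower, and the median log2 difference was 1.03 over the 11 member probes and -0.01 over all probes. Within the cochlea 5 member probes were higher and 3 lower, with 10.0% and 9.47% of all probes. Within the vestibular system 6 were higher and 2 lower, with 10.2% and 9.44% of all probes. No member probe was called for an organ difference in NEC against ENHC, for which 3.20% of all probes had a higher and 2.99% a lower difference in the cochlea. In NEC against HC, 7 member probes were higher and 1 lower over both organs, where 26.9% and 26.7% of all probes were called. The same comparison gave 6 higher and 1 lower in the cochlea (21.4% and 21.9% of all probes) and 5 higher and 0 lower in the vestibular system (20.2% and 19.0%). Each of these counts of higher probes includes Pmp22 probe ILMN_2661299, which passed the detection filter only through NEC arrays.

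**Figure D1:**
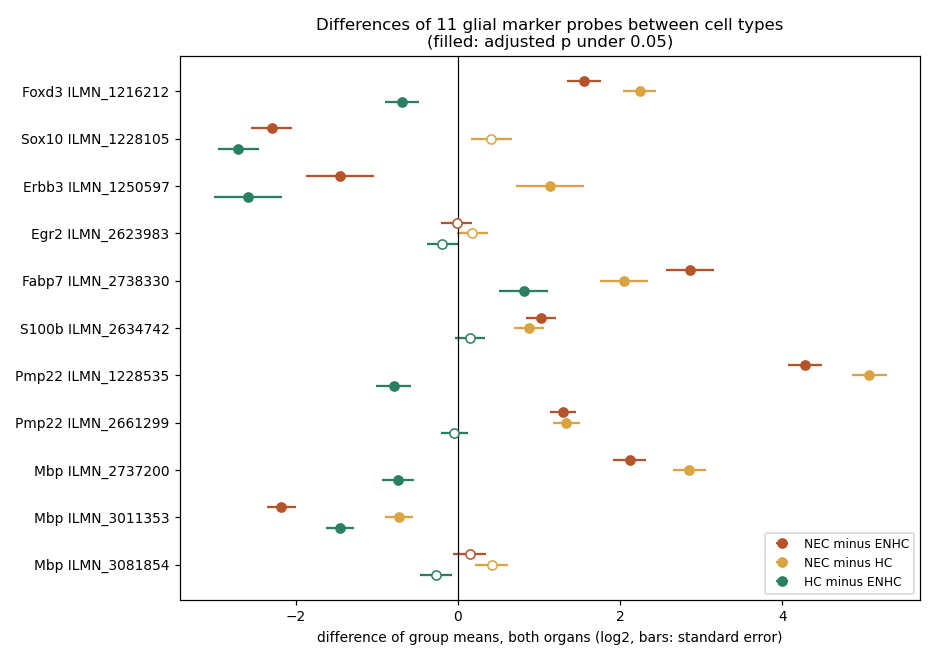
Differences in log2 normalized intensity between cell types over both organs for the 11 tested member probes, with bars for the standard error and filled points for an adjusted p under 0.05. Pmp22, Fabp7, Foxd3 and 1 Mbp probe lie to the right in NEC minus ENHC and NEC minus HC, while Sox10 and Erbb3 lie to the left in both NEC minus ENHC and HC minus ENHC.

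Foxd3, which keeps neural crest cells in an early state, was detected on all 18 arrays and was highest in NEC. Its deposited signal was 1126.3, 713.7 and 593.1 in cochlear NEC, 248.1, 224.7 and 167.3 in cochlear HC, and 453.3, 245.6 and 219.7 in cochlear ENHC. In the vestibular system the signal was 869.0, 631.6 and 460.3 in NEC, 230.4, 207.9 and 252.4 in HC, and 342.9, 222.5 and 272.7 in ENHC. After normalization the 6 NEC arrays all lay above the other 12 arrays. Foxd3 was 2.94-fold higher in NEC than in ENHC (log2 difference 1.56 ± 0.21, adjusted p = 8.44e-06) and 4.72-fold higher than in HC (2.24 ± 0.21, adjusted p = 3.25e-08). HC were lower than ENHC by a smaller amount (log2 difference -0.68 ± 0.21, adjusted p = 0.0124), and this difference had an adjusted p of 0.0807 with median scaling. No organ difference was called in any cell type.

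Sox10 ran the other way in NEC against ENHC and was highest in ENHC, while in HC it was lower than in ENHC, as Foxd3 was. Its signal was 197.4, 254.8 and 208.0 in cochlear NEC, 179.5, 172.7 and 118.4 in cochlear HC, and 950.8, 664.4 and 542.0 in cochlear ENHC. Vestibular values were 165.2, 241.9 and 174.2 in NEC, 209.0, 180.2 and 242.3 in HC, and 715.6, 656.5 and 598.1 in ENHC. The 6 ENHC arrays did not overlap with any NEC or HC array, and Sox10 was detected on every array. Sox10 was 4.90-fold lower in NEC than in ENHC (log2 difference -2.29 ± 0.25, adjusted p = 7.81e-07) and 6.53-fold lower in HC than in ENHC (-2.71 ± 0.25, adjusted p = 6.18e-08). NEC and HC overlapped and did not differ past the threshold (log2 difference 0.41 ± 0.25, adjusted p = 0.185). Sox10 thus set ENHC apart from both other cell types, although cells of the nerve without GFP and CD326 fall in the NEC gate.

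Erbb3, the neuregulin receptor, was also highest in ENHC, with signals of 192.3, 196.5 and 181.3 in cochlear NEC, 135.2, 91.8 and 127.8 in cochlear HC, and 478.5, 480.0 and 397.1 in cochlear ENHC. In the vestibular system it read 174.7, 238.1 and 216.1 in NEC, 173.3, 85.4 and 336.5 in HC, and 336.5, 292.7 and 418.8 in ENHC. It was detected on all NEC and ENHC arrays and on 4 of 6 HC arrays. Erbb3 was 2.73-fold lower in NEC than in ENHC (log2 difference -1.45 ± 0.42, adjusted p = 0.0131), by -1.79 ± 0.59 in the cochlea (adjusted p = 0.0396) and by -1.11 ± 0.59 in the vestibular system, where it was not called (adjusted p = 0.245). In HC it was 6.02-fold lower than in ENHC (log2 difference -2.59 ± 0.42, adjusted p = 5.22e-05), with overlapping arrays. Vestibular HC replicate 3 stood apart from its group, with a normalized log2 value of 8.14 beside 6.13 and 4.44. On that array the summed level of the 8 epithelial markers was 7399.1, beside 5235.3 and 5315.1 in the other vestibular HC arrays, and that of the 11 supporting cell markers was 6232.0, beside 4257.3 and 4145.7, and their part in the Erbb3 value was not tested. Erbb3 was higher in NEC than in HC by 1.14 ± 0.42 (adjusted p = 0.0285) with overlapping arrays. Without vestibular HC replicate 3 that difference was 1.61 (adjusted p = 1.94e-04), and without vestibular HC replicate 2 it was 0.69 and no longer called (adjusted p = 0.0804). That call was lost in 12 of 27 alternatives, and the cochlear call of NEC against ENHC in 7, among them each cochlear NEC array left out.

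Egr2, the regulator of Schwann cell myelination, was bright on every array and did not separate the cell types. Its signal was 3004.7, 2118.6 and 1686.5 in cochlear NEC, 3197.9, 1119.2 and 1196.5 in cochlear HC, and 2884.3, 1948.0 and 1039.8 in cochlear ENHC. Vestibular signals were 2610.4, 1667.3 and 1597.8 in NEC, 2640.6, 1880.4 and 1822.5 in HC, and 3833.7, 2254.4 and 1323.2 in ENHC. All 6 groups overlapped. Replicate 1 had the highest raw Egr2 signal in each of them, and also the highest raw array median. After normalization it was not the highest for Egr2 in cochlear NEC, cochlear ENHC, vestibular HC or vestibular ENHC. On normalized values NEC and ENHC differed by -0.01 ± 0.19 (log2, adjusted p = 0.977), NEC and HC by 0.18 ± 0.19 (adjusted p = 0.458), and HC and ENHC by -0.19 ± 0.19 (adjusted p = 0.457). Egr2 is also known as an immediate early gene that many cell types induce within a short time of stimulation. The genes with the most similar pattern over the 18 arrays were Nfat5, Dusp1 and Dlg1 (Pearson r = 0.790, 0.786 and 0.785), each below the 3 leading correlations of any other member. Of these 3, Dusp1, a phosphatase, is likewise an immediate early gene, while Nfat5 and Dlg1 are not known as such. The CArG boxes printed above, CCTTTTTTGG and CCATATATGG, lie in the windows of separate Egr2 start sites. Whether induction or these motifs bear on the Egr2 level was not tested.

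**Figure D2:**
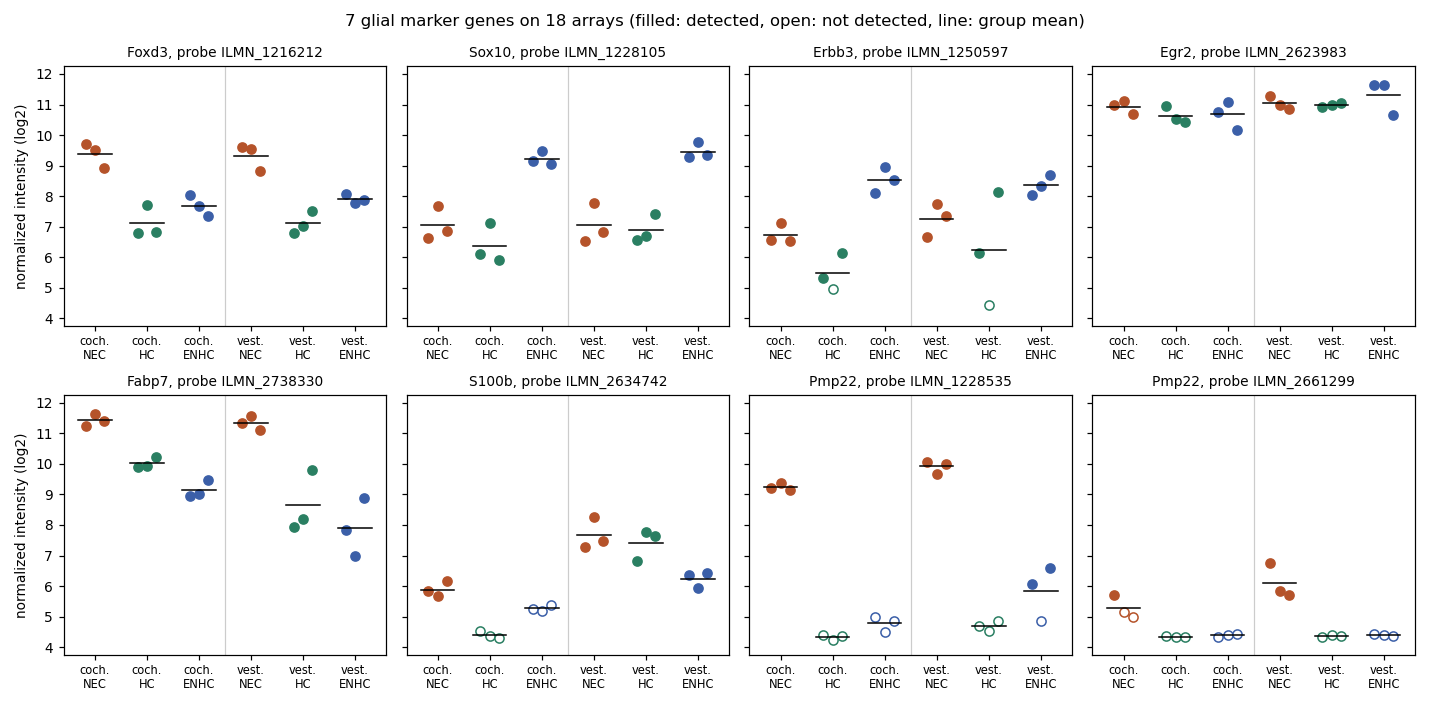
Normalized log2 intensity on the 18 arrays for the 8 probes of the 7 members other than Mbp, with NEC, HC and ENHC in the cochlea and then in the vestibular system, filled points for detected and open points for undetected arrays, and lines at group means. NEC arrays lie highest for Foxd3, Fabp7 and Pmp22, ENHC arrays highest for Sox10, and Egr2 lies between 10.18 and 11.65 in all groups.

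Fabp7, the brain-type fatty acid binding protein, was highest in NEC of both organs. Its signal was 3640.9, 3113.4 and 2779.3 in cochlear NEC, 1702.6, 769.4 and 1071.1 in cochlear HC, and 818.1, 493.2 and 689.6 in cochlear ENHC. Vestibular values were 2732.5, 2496.1 and 1889.9 in NEC, 419.3, 373.4 and 832.4 in HC, and 303.1, 161.1 and 462.8 in ENHC. It was detected on all 18 arrays, and the 6 NEC arrays lay above the other 12. Fabp7 was 7.28-fold higher in NEC than in ENHC (log2 difference 2.86 ± 0.30, adjusted p = 3.39e-07), by 2.29 ± 0.42 in the cochlea and 3.44 ± 0.42 in the vestibular system. Against HC it was 4.15-fold higher (log2 difference 2.05 ± 0.30, adjusted p = 1.04e-05). Its level in HC exceeded that in ENHC by 0.81 ± 0.30 (log2, adjusted p = 0.0347), with overlapping arrays. Vestibular HC replicate 3 was again the highest of its group, for a cause that was not tested. Without it the HC-to-ENHC difference was 0.52 and was no longer called (adjusted p = 0.0997). That call was also lost without cochlear ENHC replicate 1 or 2, cochlear HC replicate 3, or vestibular ENHC replicate 1 or 2 (adjusted p of up to 0.108). Cochlear HC were higher than vestibular HC by 1.38 ± 0.42 (adjusted p = 0.0375), and by 1.96 without that array (adjusted p = 0.00148). The organ call in HC was lost on leaving out any of the other 5 HC arrays (adjusted p of up to 0.158). No organ difference was called in NEC (log2 difference 0.09 ± 0.42, adjusted p = 0.977).

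Pmp22, an integral protein of compact myelin that is also known in non-glial cells, gave the largest NEC-to-ENHC difference of the members. Probe ILMN_1228535 read 804.0, 647.7 and 679.2 in cochlear NEC and 1150.6, 684.9 and 928.5 in vestibular NEC. In HC it read 101.4, 69.1 and 79.0 in the cochlea and 111.2, 88.5 and 109.5 in the vestibular system, and was detected on 0 of 6 arrays. In ENHC it read 126.9, 87.0 and 101.8 in the cochlea and 142.6, 90.2 and 159.9 in the vestibular system, where replicates 1 and 3 were the only ENHC arrays that detected it. NEC were 19.4-fold higher than ENHC (log2 difference 4.28 ± 0.21, adjusted p = 9.35e-12), a value that rests in part on undetected ENHC signal, and at least 19.9-fold higher than HC (adjusted p = 2.94e-13). Here and below, "at least" sets the mean of the detected group against the lowest signal that counted as detected on each array of the undetected group. The mean takes in all arrays of the detected group, also any undetected ones. The second probe, ILMN_2661299, was dimmer, at 144.1, 106.3 and 115.5 in cochlear NEC and 181.0, 120.5 and 121.0 in vestibular NEC, and was detected on 4 of 6 NEC arrays and on no other array. It was at least 1.20-fold higher in NEC than in ENHC (adjusted p = 4.50e-06) and at least 1.34-fold higher than in HC (adjusted p = 1.41e-06). This probe passed the detection filter only through its NEC arrays, so its direction was largely set by the filter. It gives no separate support to the first probe.

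**Figure D3:**
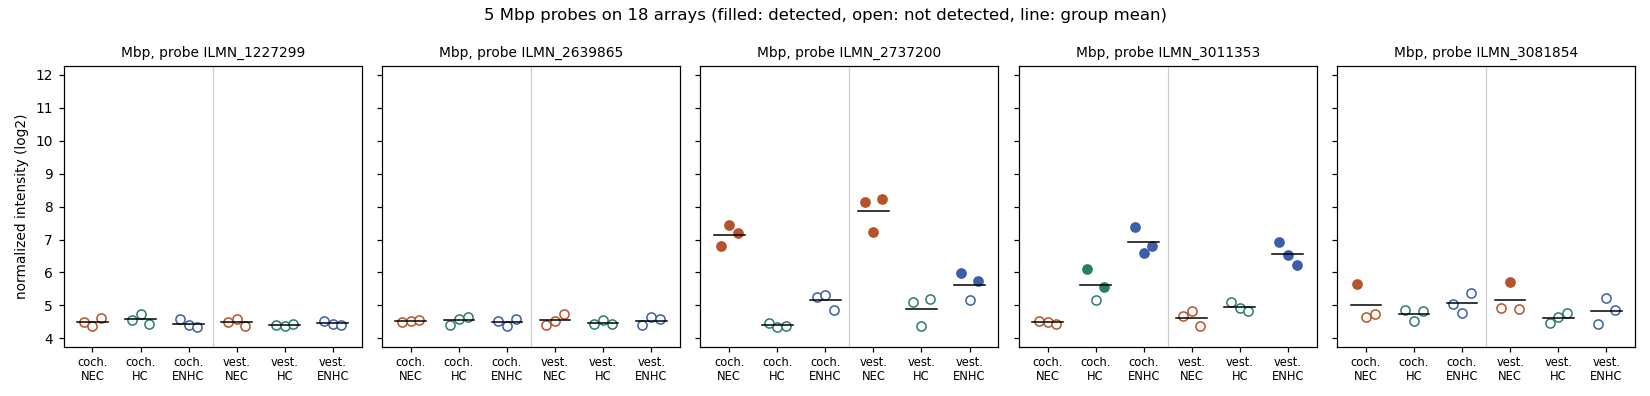
Normalized log2 intensity of the 5 Mbp probes on the 18 arrays, arranged by organ and cell type, with filled points for detected and open points for undetected arrays and lines at group means. Probe ILMN_2737200 is highest in NEC, probe ILMN_3011353 is highest in ENHC, and the other probes stay near background on nearly all arrays.

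Mbp encodes myelin basic protein, and its locus also yields Golli transcripts from an upstream start, which are known in cells that make no myelin. Probe ILMN_2737200 followed Pmp22, with signals of 212.1, 225.0 and 238.3 in cochlear NEC and 348.0, 190.9 and 337.5 in vestibular NEC. It read 106.0, 77.1 and 80.1 in cochlear HC and 125.5, 82.4 and 118.8 in vestibular HC, with 0 of 6 HC arrays detected. It read 136.0, 108.0 and 102.1 in cochlear ENHC and 138.8, 96.6 and 123.8 in vestibular ENHC, and 2 of 6 ENHC arrays, both vestibular, were detected. NEC were 4.34-fold higher than ENHC (log2 difference 2.12 ± 0.20, adjusted p = 9.91e-08) and at least 4.72-fold higher than HC (adjusted p = 6.52e-10).

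Mbp probe ILMN_3011353 ran the other way. It read 105.1, 89.4 and 98.1 in cochlear NEC and 97.5, 95.8 and 84.5 in vestibular NEC, with 0 of 6 NEC arrays detected. In HC it read 180.4, 96.0 and 107.5 in the cochlea, where replicates 1 and 3 were detected, and 125.0, 99.2 and 109.6 in the vestibular system, where none was. In ENHC it was detected on all 6 arrays, at 314.6, 155.3 and 172.6 in the cochlea and 194.6, 138.3 and 141.8 in the vestibular system. ENHC lay above every NEC and HC array after normalization. Mbp by this probe was at least 2.67-fold lower in NEC than in ENHC (adjusted p = 1.13e-08) and was also lower in HC than in ENHC (log2 difference -1.45 ± 0.18, adjusted p = 1.80e-06), a value that rests in part on the 4 undetected HC arrays. The mean log2 level was 4.56 in NEC, 5.29 in HC and 6.74 in ENHC. The Pearson correlation of these Mbp probes over the 18 arrays, which share amplification and normalization, was -0.53.

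The remaining Mbp probes carried little signal. Probe ILMN_3081854, annotated to the same transcript record as ILMN_3011353, was detected on 1 cochlear NEC array (signal 142.2) and 1 vestibular NEC array (signal 117.0) and was called in no comparison. Its difference between NEC and ENHC was 0.15 ± 0.20 (log2, adjusted p = 0.674). Probes ILMN_1227299 and ILMN_2639865 were annotated to another Mbp record and were detected on 0 of 18 arrays, with signals of 80.6 to 112.8 and 83.2 to 110.4, and were not tested. Which Mbp isoforms each probe matches was not analysed here.

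S100b was lower in the cochlea than in the vestibular system in every cell type. Its signal was 149.7, 119.5 and 159.0 in cochlear NEC, against 227.9, 306.3 and 231.1 in vestibular NEC. In HC it was 107.8, 78.0 and 74.6 in the cochlea, where 0 of 3 arrays detected it, against 233.8, 303.8 and 266.1 in the vestibular system, where all 3 did. In ENHC it was 135.6, 104.9 and 112.9 in the cochlea, again on 0 of 3 arrays above detection, against 157.1, 115.0 and 150.9 in the vestibular system, with 3 of 3 detected. After normalization the cochlear arrays lay below the vestibular arrays in each cell type with no overlap. Cochlear levels were 3.47-fold lower in NEC (log2 difference -1.79 ± 0.27, adjusted p = 2.61e-04), at least 4.45-fold lower in HC (adjusted p = 2.36e-07) and at least 1.69-fold lower in ENHC (adjusted p = 0.0269). The ENHC call was lost with offset 50 (adjusted p = 0.0941) and in the deposited normalized table (adjusted p = 0.192), and without any 1 of the ENHC arrays except vestibular replicate 2.

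Over both organs S100b was 2.04-fold higher in NEC than in ENHC (adjusted p = 2.68e-04) and 1.84-fold higher than in HC (adjusted p = 6.12e-04), with overlapping arrays, and its cell type order differed by organ. In the vestibular system NEC were 2.72-fold higher than ENHC (adjusted p = 4.25e-04) and HC were 2.26-fold higher than ENHC (log2 difference 1.18 ± 0.27, adjusted p = 0.00205), while NEC and HC overlapped (log2 difference 0.27 ± 0.27, adjusted p = 0.464). In the cochlea NEC were the only detected cell type, at least 1.55-fold higher than HC (adjusted p = 1.53e-04) and not called against ENHC (log2 difference 0.61 ± 0.27, adjusted p = 0.130). The difference between organs in the HC-to-ENHC comparison was -2.06 ± 0.37 (log2, adjusted p = 0.00119), and because both cochlear groups were undetected, its size depends on the background offset. S100b was the only member with a called organ difference of this kind. The genes with the most similar pattern over 18 arrays were Gpr37 (r = 0.90), Ttn (r = 0.88) and Slc4a4 (r = 0.87).

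**Figure D4:**
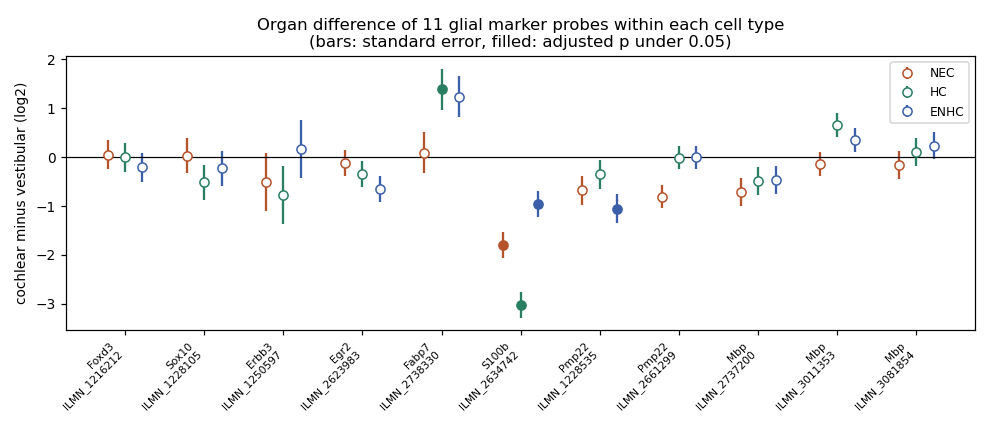
Cochlear minus vestibular difference in log2 normalized intensity for the 11 tested member probes in NEC, HC and ENHC, with bars for the standard error and filled points for an adjusted p under 0.05. S100b lies below 0 in all 3 cell types, at -1.79 in NEC, -3.02 in HC and -0.96 in ENHC, and most other points are within their error of 0 or not called.

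Few other organ differences were called. In cochlear against vestibular NEC, 0 member probes were higher and 1 was lower, where 2.21% and 2.67% of all probes were called. In HC, 1 was higher (Fabp7) and 1 lower (S100b), with 5.68% and 6.43% of all probes. In ENHC, 0 were higher and 2 lower (S100b and Pmp22), with 4.17% and 4.69% of all probes. The Pmp22 difference in ENHC was -1.05 ± 0.30 (adjusted p = 0.0317) with 0 of 3 cochlear and 2 of 3 vestibular arrays detected, and it lost its call without vestibular ENHC replicate 3 (log2 difference -0.68, adjusted p = 0.171), and also without vestibular replicate 1 or cochlear replicate 2 or 3. Markers of other cell types also moved between the organs in NEC, where 2.69% of all genes were higher and 3.08% lower in cochlear NEC. Of 13 measured neuronal genes 8 were higher in cochlear NEC and 0 lower, with a summed level of 2665.9 to 4233.7 in cochlear NEC and 1619.1 to 1945.3 in vestibular NEC. Endothelial genes had 1 higher and 4 lower of 9, with sums of 2897.2 to 3503.8 in cochlear NEC and 3941.9 to 4778.4 in vestibular NEC. Macrophage and leukocyte genes had 0 higher and 3 lower of 5, with sums of 261.5 to 418.5 in cochlear NEC and 691.2 to 1390.6 in vestibular NEC. Erythroid genes had 0 higher and 2 lower of 3, and mesenchymal genes 0 higher and 2 lower of 12. The part of these cells in the S100b difference in NEC was not tested.

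In HC against ENHC, most member probes that differed were lower in HC. Over both organs 1 was higher and 6 lower, where 20.6% and 22.3% of all probes were called. In the cochlea 0 were higher and 4 lower (15.8% and 16.1% of all probes), with S100b called between 2 undetected groups, and in the vestibular system 1 was higher and 4 lower (14.7% and 15.7%). The organ difference of this comparison was called for 0 member probes upward and 1 downward, with 3.85% and 4.83% of all probes. The lower calls over both organs were Sox10, Erbb3, Foxd3, Pmp22 probe ILMN_1228535 and Mbp probes ILMN_2737200 and ILMN_3011353. For Pmp22 and the first of these Mbp probes HC were undetected, and they were at least 1.02-fold and at least 1.09-fold lower than ENHC. Each of these probes was detected on only 2 of 6 ENHC arrays, so these limits rest in part on undetected ENHC signal.

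Correlations across the 18 arrays, which share the 6 groups, are given as a description. Pmp22 was most like Nid1 (r = 0.996), Cav1 (r = 0.995) and Coch (r = 0.990), a basement membrane protein, a caveolar protein and cochlin. Coch is also among the 12 mesenchymal markers, and the part of mesenchymal cells in the Pmp22 level was not tested. Mbp probe ILMN_2737200 was most like Slc40a1, Anxa3 and Arpc1b (r = 0.975, 0.971 and 0.969), and Foxd3 was most like Cep55, Klf7 and Rhoj (r = 0.96, 0.96 and 0.95). Fabp7 was most like Chst1 (r = 0.93), Ccnyl1 (r = 0.92) and Plgrkt (r = 0.91). Erbb3 was most like Sox9 (r = 0.94), Notch1 (r = 0.94) and Sox5 (r = 0.93), and Sox10 was most like Bloc1s5 (r = 0.94), Ptgds (r = 0.94) and Ttr (r = 0.93). Among the members themselves, Pmp22 probe ILMN_1228535 and Mbp probe ILMN_2737200 had r = 0.97, Erbb3 and Sox10 had r = 0.81, and Pmp22 and Sox10 had r = -0.21.

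The other glial lists were read with the brightest probe of each gene in NEC against ENHC over both organs. Over all 12002 genes read this way, 15.9% were higher and 15.5% lower in NEC, and each list below is to be read against these shares. Of 9 measured neural crest and glial precursor factors, 5 were higher and 3 lower, with a median log2 difference of 1.11, against -0.01 over all these genes. Zeb2, a zinc finger factor of neural crest and Schwann cells, was 23.9-fold higher in NEC (adjusted p = 6.63e-12), and the endothelin receptor Ednrb was 4.95-fold higher (adjusted p = 6.73e-07). Ednrb is also on the list of melanocyte markers, of which 3 of 5 measured were higher in NEC than in ENHC and 0 lower. The part of melanocytes and other non-glial cells of the NEC gate in the Zeb2 and Ednrb values was not tested. Ets1 and Snai2, transcription factors of migrating crest that are also known in endothelium and mesenchyme, were undetected in ENHC and at least 8.61-fold and at least 3.80-fold higher in NEC. The 3 lower genes were Sox5, Sox6 and Sox9. The folds given here and below for Zeb2, Cldn5, Ugt8a, Grb7 and S100a1 rest in part on undetected signal, with 1 or 2 of 6 arrays detected in the lower cell type.

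Of 10 measured genes of Schwann cell precursors and immature Schwann cells, 6 were higher and 2 lower in NEC, beside 15.9% and 15.5% of all genes, with a median of 0.69. Gap43, a growth cone protein that is also among the neuronal markers, was detected on 6 of 6 NEC and 0 of 6 ENHC arrays and rose at least 8.49-fold (adjusted p = 1.33e-10). Dhh, the hedgehog ligand that Schwann cells secrete, was at least 4.98-fold higher (adjusted p = 3.18e-11). Cdh19, a cadherin of Schwann cell precursors, rose at least 3.86-fold (adjusted p = 1.45e-09), and the adhesion molecule Cadm3, detected on 4 of 6 NEC arrays, rose at least 2.11-fold (adjusted p = 4.54e-11). The 2 lower genes were Ptprz1 and Sema3b, at 2.10-fold and 1.85-fold.

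**Figure D5:**
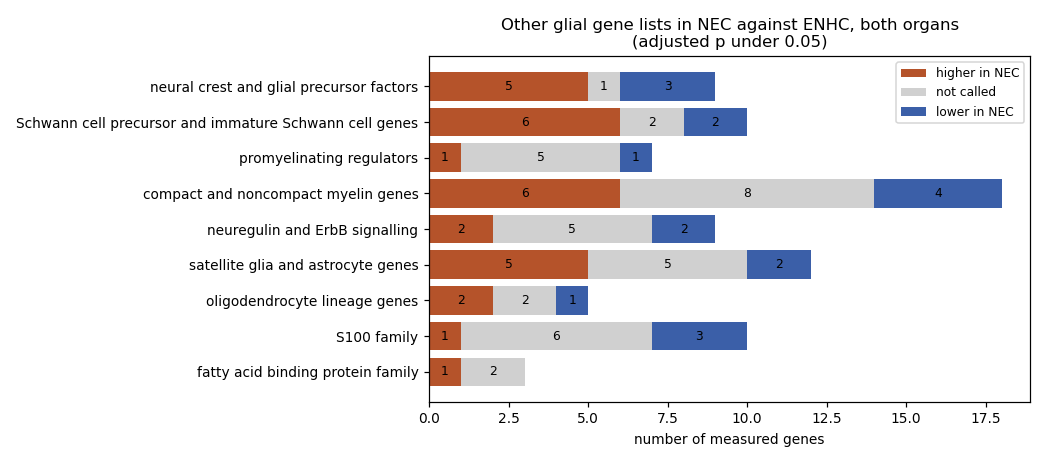
Number of measured genes of each other glial list that were higher in NEC, not called, or lower in NEC than in ENHC over both organs, at an adjusted p under 0.05. The Schwann cell precursor list has 6 higher and 2 lower genes of 10, and the myelin list has 6 higher and 4 lower of 18.

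Of 18 measured myelin genes, 6 were higher and 4 lower, with a median of 0.15, beside 15.9% and 15.5% of all genes. Cldn5, a tight junction protein best known from endothelium, was 30.0-fold higher in NEC (adjusted p = 5.70e-13), and Pllp, plasmolipin of myelin membranes, was at least 1.70-fold higher (adjusted p = 3.43e-08). Ugt8a, the enzyme of galactocerebroside synthesis, was 3.77-fold lower in NEC (adjusted p = 1.59e-06), and the tetraspanin Cd9 was 3.59-fold lower (adjusted p = 1.43e-05). Mag, a protein of the inner myelin wrap, was detected on 3 of 6 NEC arrays, 1 of 6 HC arrays and 2 of 6 ENHC arrays, and gave a log2 difference of 0.30 ± 0.25 between NEC and ENHC (adjusted p = 0.434). Of 7 measured promyelinating regulators, 1 was higher (Qk, 1.42-fold, adjusted p = 0.0433) and 1 lower (Adgrg6, the adhesion receptor needed for Schwann cell myelination, 3.68-fold, adjusted p = 3.97e-07). These single calls were near the background of 15.9% and 15.5%.

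Of 9 measured genes of neuregulin and ErbB signalling, 2 were higher and 2 lower, with a median of -0.18, close to the background of 15.9% and 15.5%. Grb7, an adaptor of ErbB receptors, was 21.0-fold lower in NEC than in ENHC (adjusted p = 6.92e-12). Erbb4 was undetected in NEC and was lower (adjusted p = 0.00157), while Pik3r1 (1.75-fold, adjusted p = 0.00124) and the protease gene Adam17 (1.63-fold, adjusted p = 0.00268) were higher. Erbb2, the partner of Erbb3, was detected on 6 of 6 NEC, 0 of 6 HC and 6 of 6 ENHC arrays, with a log2 difference of -0.29 ± 0.13 between NEC and ENHC (adjusted p = 0.106). Of 12 measured satellite glia and astrocyte genes, 5 were higher and 2 lower, where 15.9% and 15.5% of all genes were, with a median of 0.36. The glutamate transporter genes Slc1a2 (at least 8.98-fold, adjusted p = 8.54e-14) and Slc1a3 (2.86-fold, adjusted p = 6.94e-06) and the connexin gene Gja1 (3.09-fold, adjusted p = 2.85e-04) were higher, and Ttyh1 was 3.99-fold lower (adjusted p = 1.60e-07). Slc1a3 is also on the list of 11 supporting cell markers, on which 1 gene was higher in NEC than in ENHC and 6 were lower.

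Oligodendrocytes belong to the central nervous system, and 7 of 12 genes of that lineage were not detected on 2 arrays and were not tested. Of the 5 tested, Pdgfra, which mesenchyme also expresses, was 16.1-fold higher in NEC (adjusted p = 3.56e-10) and Cspg4 was 1.57-fold higher, while Zfp488 was at least 1.03-fold lower. S100b had relatives with other patterns. Of 10 measured genes of the S100 list, 1 was higher and 3 lower in NEC (15.9% and 15.5% of all genes), with S100a9, a gene of neutrophils, at least 4.99-fold higher (adjusted p = 3.38e-11) and S100a1 7.31-fold lower (adjusted p = 1.01e-09). S100a14 (at least 1.29-fold) and S100a11 (1.44-fold) were the other lower genes. Of the 3 measured relatives of Fabp7, Pmp2, the fatty acid binding protein of peripheral myelin, was higher in the fit (log2 difference 0.60 ± 0.19, adjusted p = 0.0254) but was detected on only 2 of 6 NEC arrays.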

How the data were processed

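The authors amplified total RNA with the NuGEN Ovation V2 kit, hybridised it to Illumina mouse BeadChips and summarised bead signals in Bead-Studio, of a version not stated in the sources read. The deposited signal table holds intensity values without normalization, each with a detection p-value that the authors' software computed against negative controls. A second deposited table holds quantile-normalized intensity values and served as an alternative. Of 45281 probes, 34885 carry 1 symbol, 18 several and 10378 none.

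In limma 3.58.1 (R 4.3.3), signals were background-corrected (normexp, from detection p-values, offset 16), quantile-normalized and taken to log2. Probes detected at p under 0.01 on at least 2 arrays were kept (24352). All 18 arrays entered 1 linear model of 6 group means, and moderated tests were 2-sided and adjusted over all kept probes by the Benjamini-Hochberg method. Other lists used the brightest kept probe per gene (12002 genes). Named genes were all member probes, up to 4 called genes per other list with the largest NEC-to-ENHC difference, the 3 most alike genes per member, and Sox5, Sox6, Sox9, Ptprz1, Sema3b, Mag and Erbb2, added after their values were seen. Members and lists were chosen with earlier results of these data known. The model was tested on simulated data. Promoter motifs were searched after the results were known. Alternatives were median scaling, no background correction, the deposited normalized table, offset 50, no filter, detection on 3 arrays, only the groups compared, a replicate block, 1 probe per gene, an unmoderated 2-way model and leaving out each array.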

Additional observations from a re-analysis of the deposited data

Results flagged for a closer look

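S100b was the member whose HC-to-ENHC difference was called as differing between the organs, with an interaction of -2.06 (log2, cochlea minus vestibular, adjusted p = 0.00119). In the cochlea 0 of 3 HC and 0 of 3 ENHC arrays detected it, so that its fitted difference there (-0.88 ± 0.27) is one between undetected groups, and the call was lost in 5 of 27 alternatives, at -0.94 to -0.38 over all of them. In the vestibular system it was 1.18 ± 0.27, with all arrays detected. The interaction was called under all 27 alternatives, between -2.35 and -1.09.
The cause was not tested.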

How the results depend on the processing

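Of 67 called differences of single member probes, 56 were called in the same direction under every alternative run, and no called difference changed sign. The 11 others were differences of Erbb3, Fabp7, Foxd3, Pmp22 and S100b, and the cause of their loss was not tested. HC signal for Pmp22 and for cochlear S100b was undetected and gives only a limit.

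Counts of called member probes changed as follows, and the cause was not tested unless stated. For cochlear against vestibular ENHC, 0 were higher and 2 lower. This became 1 higher and 1 lower with median scaling, 1 lower with only the groups compared, and 0 lower with the deposited normalized table, no background correction, no filter or offset 50. Without 1 array, 0 to 1 were higher and 0 to 2 lower. For cochlear against vestibular HC, the 1 higher probe became 0 with no filter or only the groups compared, and without 1 array 0 to 1 were higher and 1 to 2 lower. For cochlear against vestibular NEC, the 1 lower probe became 2 with the deposited table or no background correction, and 1 to 2 without 1 array. For HC against ENHC over both organs, the 1 higher probe became 0 with no filter or only the groups compared and 0 to 1 without 1 array. In the cochlea the 0 higher became 1 with only the groups compared and 0 to 1 without 1 array. In the vestibular system the 4 lower became 2 with only the groups compared and 3 to 6 without 1 array, with 1 to 2 higher, and the organ difference had 0 to 1 higher without 1 array. With 1 probe per gene, which drops member probes, NEC against ENHC in the vestibular system had 1 lower, and NEC against HC had 0 lower over both organs and in the cochlea.

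Values that were not called changed sign. Egr2 was 0.12 in cochlear minus vestibular NEC with median scaling and -0.21 to 0.0091 without 1 array, and in NEC minus ENHC it was 0.0086 with median scaling and -0.18 to 0.092 without 1 array. Without 1 array, cochlear minus vestibular NEC ranged between -0.036 and 0.21 for Fabp7, -0.20 and 0.28 for Foxd3, -0.48 and 0.11 for Mbp probe ILMN_3081854, and -0.29 and 0.39 for Sox10, and NEC minus ENHC between -0.011 and 0.24 for Mbp probe ILMN_3081854.

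Replicate numbers were shared across groups without a label of a common batch. Of 45 same-numbered pairs, 39 had a correlation of deviations over 0.1, the lowest at -0.03, and 17 of 18 arrays were most like an array of their own number. With the replicate block, called member probes were 1 higher in cochlear against vestibular ENHC, 2 higher in HC and 2 lower in NEC, where Pmp22 probe ILMN_2661299 gained a call (log2 difference -0.81, adjusted p = 0.0263, against 0.0531 without the block).

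Over all probes, lower calls in cochlear against vestibular NEC numbered 650, but 367 with median scaling and 400 without cochlear NEC replicate 2. Lower calls in ENHC numbered 1142, but 740 with median scaling. In cochlear against vestibular HC, 1382 higher and 1566 lower became 545 and 780 with only the groups compared. In vestibular HC against ENHC, 3831 lower became 2386 with median scaling and 2552 with only the groups compared. Counts with 1 probe per gene fell with the number of features, as in the F test (7525 of 12002 genes, against 13953 of 24352 probes).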
